A study of Mus musculus with 2 samples.

Results

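The matrix metalloproteinases (MMPs) Mmp2, Mmp3, Mmp8, Mmp9, Mmp14 and Mmp19 and their inhibitors Timp1, Timp2, Timp3 and Timp4 were examined in RNA-seq of whole mouse omentum, a fatty abdominal tissue that holds lymphoid clusters called milky spots. These 10 genes were picked by symbol as the stromal and myeloid MMPs and the tissue inhibitors of metalloproteinases (TIMPs), and all 10 were found among the 24346 gene symbols measured. WT mice were compared with Postn-DTR mice, heterozygotes in which a diphtheria toxin receptor was inserted into the Postn gene, so that cells with an active Postn promoter are killed by diphtheria toxin (DT). Mice of both genotypes had received DT 5 days earlier, there was 1 library per genotype, and age and pooling of animals were not given for these libraries. The Postn promoter is also active in mesenchymal cells outside the omentum, which limits the mice as a model of an omental ablation. Because no replicates exist, no difference below has a replicate check and no p-value is given.

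MMPs are zinc-dependent endopeptidases that cut collagens and other proteins of the extracellular matrix. Most are secreted as inactive precursors, whereas membrane-type MMPs such as MMP14 stay on the cell surface. TIMPs bind the active site of MMPs and block it, and fibroblasts, macrophages and neutrophils each make a characteristic set of MMPs and TIMPs. In adipose tissue these proteins take part in remodelling of the matrix around adipocytes and vessels.

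The largest difference was in Timp1, whose level was 17.1-fold higher in the Postn-DTR library, followed by Mmp8 at 5.18-fold and Timp4 at 2.14-fold. Timp2, the most abundant of the 10 genes, had nearly the same level in both libraries. Timp3, Mmp2 and Mmp9 were lower in Postn-DTR, by less than 2-fold each. Levels are given as FPKM (the fragments of a gene relative to its transcript length and the library size), so genes can be compared with each other. Bracketed ranges are 95% counting intervals from approximate fragment numbers, and they cover counting error only.

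The upstream sequences of Timp1 and Mmp8 are shown because these genes differed most, and that of Mmp3 because it lies in the same MMP cluster as Mmp8. Each run is the 250 bases before the RefSeq start (GRCm38.p6), read 5′ to 3′ on the plus strand, at chrX:20869916-20870165 for Timp1, chr9:7558179-7558428 for Mmp8 and chr9:7445572-7445821 for Mmp3. Capitals mark matches, on either strand, to AP-1 (TGANTCA), the TATA box (TATAAA), PEA3 (AGGAAG) or C/EBP (TTNNGNAA).
Timp1: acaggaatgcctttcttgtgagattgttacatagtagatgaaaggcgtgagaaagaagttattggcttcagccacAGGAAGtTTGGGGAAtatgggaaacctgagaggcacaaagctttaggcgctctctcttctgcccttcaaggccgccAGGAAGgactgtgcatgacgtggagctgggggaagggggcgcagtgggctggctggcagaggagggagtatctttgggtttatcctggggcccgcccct
Mmp8: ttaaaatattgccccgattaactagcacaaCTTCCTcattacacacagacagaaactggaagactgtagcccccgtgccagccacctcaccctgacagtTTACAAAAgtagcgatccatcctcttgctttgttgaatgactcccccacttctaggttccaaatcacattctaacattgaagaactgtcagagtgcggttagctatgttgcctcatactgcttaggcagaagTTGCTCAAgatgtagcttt
Mmp3: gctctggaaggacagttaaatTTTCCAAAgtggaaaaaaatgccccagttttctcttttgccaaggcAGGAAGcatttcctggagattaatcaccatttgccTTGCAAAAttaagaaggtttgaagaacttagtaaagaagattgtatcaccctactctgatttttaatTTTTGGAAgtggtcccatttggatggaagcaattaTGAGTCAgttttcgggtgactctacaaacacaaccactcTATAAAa

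The Timp1 run held 2 matches to PEA3 and 1 to C/EBP. The Mmp8 run held 1 match to PEA3 and 2 to C/EBP. Mmp3 was the only 1 of the 7 genes with an entry in the promoter table (Mmp3, Mmp8, Mmp14 and the 4 TIMPs) whose run matched AP-1 or the TATA box. Its matches were TGAGTCA at -46 to -40 and TATAAA at -7 to -2, next to the annotated start. Of 32851 promoter windows of this length, 6.75% matched AP-1, 12.4% the TATA box, 29.5% PEA3 and 36.8% C/EBP. These matches describe letters in a window and not bound sites.

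A gene was counted as higher or lower in Postn-DTR when log2(FPKM + 1) differed by at least 1, which is a 2-fold difference on that scale, among 13127 genes whose FPKM averaged 1 or more over both libraries. All 10 genes passed this minimum, and each was above 1 in both libraries. Of the 10, 2 were at least 2-fold higher (Timp1 and Mmp8) against 3.88% of all genes compared, and 0 were at least 2-fold lower against 3.12%. The remaining 8 lay within 2-fold, 5 of them above 0 and 3 below. The median difference of the 10 genes was 0.39, beside 0.02 over all genes compared. Among all genes past the threshold 55.4% were higher, but 28.6% when pancreatic acinar genes, which differed greatly between the libraries, were removed and both libraries were set to the same total. That setting lowered the difference of a typical gene by 0.31, so a single gene's difference of this size cannot be told apart from scaling.

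**Figure D1:**
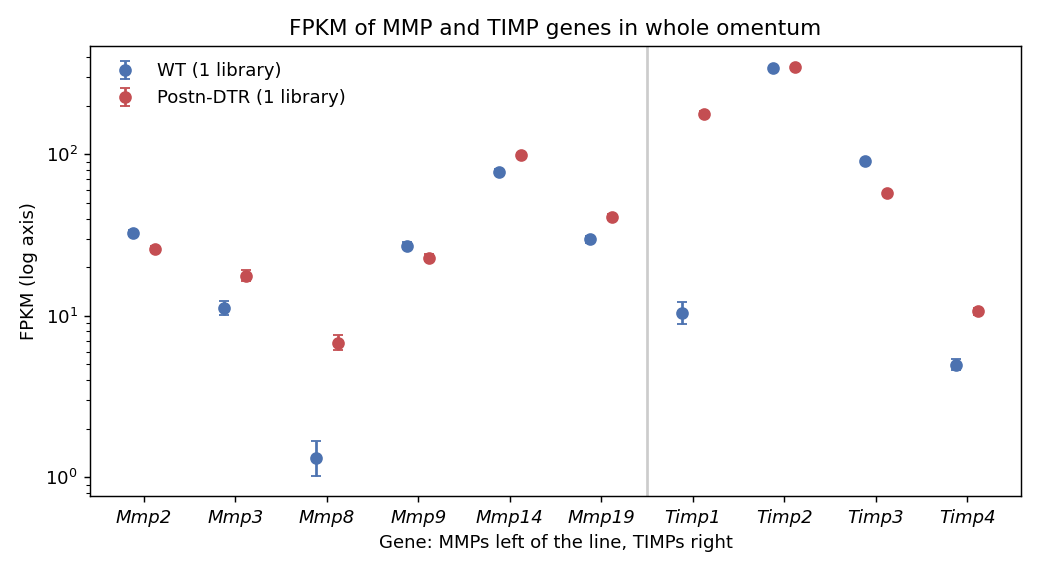
FPKM (log axis) of the 6 MMPs and 4 TIMPs in the WT and the Postn-DTR library, 1 point per library with its 95% counting interval. Timp1 sits at 10.5 in WT against 178.7 in Postn-DTR, while Timp2 sits at 339.8 and 346.1.

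Timp1 encodes a secreted inhibitor of most MMPs, and its transcript is inducible by cytokines and growth factors. The gene (ENSMUSG00000001131) lies at chrX:20870166-20874735 on the plus strand and has 6 exons (positions of genes here and below are from GENCODE M21 on GRCm38, the build also called mm10). Its FPKM was 10.5 (8.92 to 12.2) in WT against 178.7 (172.2 to 185.3) in Postn-DTR. The ratio was 17.1 with a counting interval of 14.6 to 20.1, and the log2(FPKM + 1) difference was 3.97. Timp1 ranked 17 from the highest among the 13127 genes compared. Syn1, a neuronal gene, spans Timp1 on the opposite strand without sharing exon bases, and had an FPKM of 0.621 in WT against 0.405 in Postn-DTR.

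The genes whose levels in the 2 libraries lay closest to those of Timp1, by Euclidean distance of log2(FPKM + 1), were Chil3, Fcgr4 and Apoc2. Chil3, which encodes a chitinase-like protein of macrophages and neutrophils, was at 12.1 in WT against 170.0 in Postn-DTR, a distance of 0.21. Fcgr4, a receptor for IgG on myeloid cells, was at 11.8 and 135.7. Apoc2, an apolipoprotein, was at 13.6 and 127.9.

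Timp2 and Timp3 did not follow Timp1. Timp2 (ENSMUSG00000017466, chr11:118301069-118355740, minus strand), an inhibitor that also helps MMP14 to activate MMP2, was at 339.8 in WT against 346.1 in Postn-DTR. Its ratio was 1.02 (1.002 to 1.035), and its difference of 0.03 turned to -0.05 when the libraries were set to an equal 75th percentile and to -0.32 at equal totals without acinar genes. Timp3 (ENSMUSG00000020044, chr10:86300372-86349506, plus strand), an inhibitor that binds to the matrix, was at 90.4 in WT against 57.3 in Postn-DTR. It was 1.58-fold lower (1.53 to 1.63), with a difference of -0.65, and 7.31% of genes compared had a lower value. Syn3, which spans Timp3 on the opposite strand and shares 1733 exon bases with it, was at 0.515 and 0.498.

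Genes closest to Timp3 in both libraries were Islr, Psmb9 and Cox20. Islr, a gene expressed in mesenchymal cells, was at 91.6 in WT against 58.0 in Postn-DTR, a distance of 0.03. Psmb9, an immunoproteasome subunit, was at 88.9 and 56.5, and Cox20, a factor for assembly of cytochrome c oxidase, at 87.5 and 56.6.

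Timp4 (ENSMUSG00000030317, chr6:115241892-115252205, minus strand), a TIMP known for expression in adipose tissue and heart, was at 4.98 (4.60 to 5.40) in WT against 10.7 (10.1 to 11.2) in Postn-DTR. The FPKM ratio was 2.14 (1.94 to 2.36). On the log2(FPKM + 1) scale the difference was 0.96, just under the 2-fold threshold, and 4.21% of genes compared had a higher value. With a pseudocount of 0.1 in place of 1 the difference was 1.08, past the threshold. Syn2, which spans Timp4 on the opposite strand and shares 90 exon bases with it, was at 1.14 and 1.67.

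The summed FPKM of the 4 TIMPs was 445.6 in WT against 592.7 in Postn-DTR. Timp1 made up 2.35% of this sum in WT and 30.15% in Postn-DTR, Timp2 76.25% and 58.4%, Timp3 20.3% and 9.66%, and Timp4 1.12% and 1.80%. The order of Timp1 and Timp3 was thus turned around, with a Timp1 to Timp3 ratio of 0.116 in WT against 3.12 in Postn-DTR. Without Timp1 the sum was 435.2 in WT against 414.0 in Postn-DTR.

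**Figure D2:**
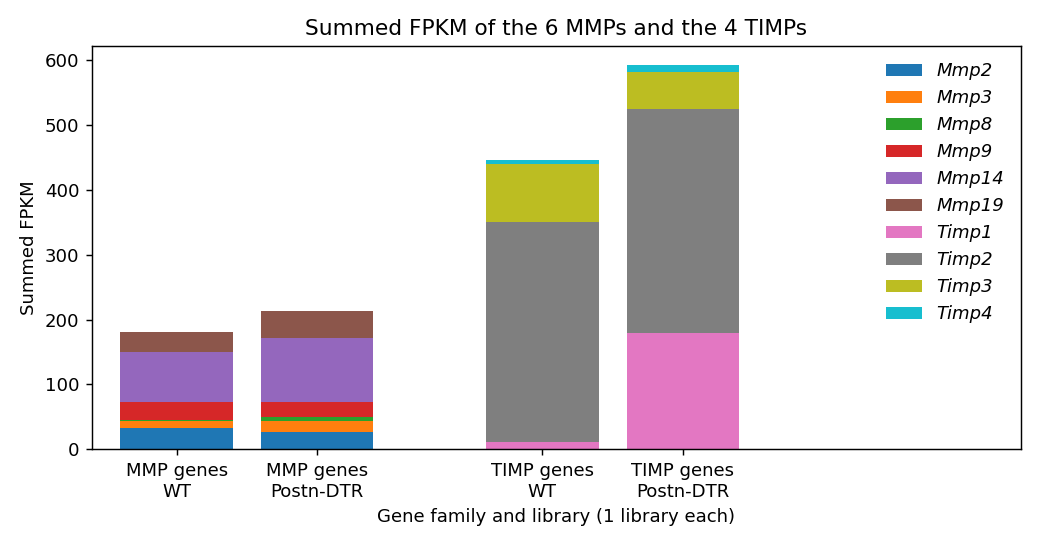
Summed FPKM of the 6 MMPs and of the 4 TIMPs in each library, with 1 bar per family and library divided by gene. The MMP bars reach 180.4 in WT against 212.8 in Postn-DTR and the TIMP bars 445.6 and 592.7, and the Timp1 part is the one that differs most in height. As shares of all FPKM the MMPs make up 0.03328% and 0.03167% and the TIMPs 0.08219% and 0.08821%.

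Mmp8 encodes a collagenase stored in neutrophil granules. The gene (ENSMUSG00000005800, chr9:7558456-7568485, plus strand) was the least abundant of the 10 in both libraries, at 1.32 (1.02 to 1.67) in WT against 6.82 (6.14 to 7.56) in Postn-DTR. The ratio was 5.18, with an interval of 3.985 to 6.81 from about 67.9 and 364.0 fragments. The log2(FPKM + 1) difference was 1.76, and 1.22% of genes compared had a higher value. With a pseudocount of 5 it was 0.90, under the threshold.

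Mmp9, the gelatinase of neutrophils and macrophages (ENSMUSG00000017737, chr2:164940780-164955850, plus strand), did not differ in the direction of Mmp8. It was at 27.2 in WT against 22.9 in Postn-DTR, which is 1.19-fold lower (1.11 to 1.27) with a difference of -0.24. Mmp2, the gelatinase of fibroblasts (ENSMUSG00000031740, chr8:92827291-92853420, plus strand), was at 32.8 in WT against 25.9 in Postn-DTR. It was 1.27-fold lower (1.19 to 1.35), with a difference of -0.33. Under the 4 other settings tried for them the differences reached -0.57 for Mmp9 and -0.66 for Mmp2. These settings could not turn a lower gene higher, because a pseudocount keeps the direction and both scalings lower the Postn-DTR values.

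Mmp14 encodes a membrane-type MMP that activates the MMP2 precursor at the cell surface. The gene (ENSMUSG00000000957, chr14:54431612-54445364, plus strand) was the most abundant MMP of the 6, at 78.2 in WT against 98.6 in Postn-DTR. Its ratio was 1.26 (1.21 to 1.31) and its log2(FPKM + 1) difference 0.33, which became -0.01 at equal totals without acinar genes. Mmp19 (ENSMUSG00000025355, chr10:128790910-128800824, plus strand), an MMP found in many tissues, was at 29.7 and 40.9, a difference of 0.45. Tmem198b overlaps Mmp19 on the opposite strand over 789 exon bases and had a similar FPKM in both libraries, at 29.1 in WT against 39.2 in Postn-DTR. Gm47093, an antisense gene not analysed here, also spans Mmp19. The strand setting of the quantification is not given in the sources used here, so the Mmp19 values are uncertain.

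Mmp3 encodes stromelysin, which is made by fibroblasts and cuts proteoglycans, fibronectin and the precursors of other MMPs. The gene (ENSMUSG00000043613, chr9:7445822-7455975, plus strand) was at 11.2 (10.2 to 12.4) in WT against 17.7 (16.4 to 19.1) in Postn-DTR. The ratio was 1.58 (1.40 to 1.79) and the difference 0.62, with 9.05% of genes compared higher. It stayed above 0 under all 4 other settings, from 0.29 to 0.66.

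Summed over the 6 MMPs, FPKM was 180.4 in WT against 212.8 in Postn-DTR. As a share of all FPKM in the library it was 0.03328% in WT against 0.03167% in Postn-DTR. The direction of the difference in the MMP sum thus depends on how the libraries are scaled. Mmp14 supplied 43.3% of this sum in WT and 46.3% in Postn-DTR, whereas the share of Mmp2 went from 18.15% to 12.15% and that of Mmp9 from 15.1% to 10.8%. The ratio of the TIMP sum to the MMP sum, which does not depend on how the libraries are scaled, was 2.47 in WT against 2.79 in Postn-DTR. Without Timp1 this ratio was 2.41 in WT against 1.95 in Postn-DTR. These are ratios of transcripts and not of proteins or activities. They and the shares hold for the 6 MMPs picked and would differ with other MMPs in the sum. The 12 other MMPs examined summed to 94.5 in WT against 75.05 in Postn-DTR, most of it Mmp23 at 75.7 and 50.3. The 5 further membrane-type MMPs summed to 13.5 and 5.27.

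In WT the order of levels was Timp2, Timp3, Mmp14, Mmp2, Mmp19, Mmp9, Mmp3, Timp1, Timp4 and Mmp8. Neighbours whose counting intervals overlapped were Mmp19 with Mmp9 and Mmp3 with Timp1. In Postn-DTR the order was Timp2, Timp1, Mmp14, Timp3, Mmp19, Mmp2, Mmp9, Mmp3, Timp4 and Mmp8, with no overlap between neighbours. Timp1 therefore stood at place 8 in WT and at place 2 in Postn-DTR, and the other genes kept their order among themselves except that Mmp14 passed Timp3 and Mmp19 passed Mmp2. The spread between animals was not measured, so these orders hold for the 2 libraries.

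**Figure D3:**
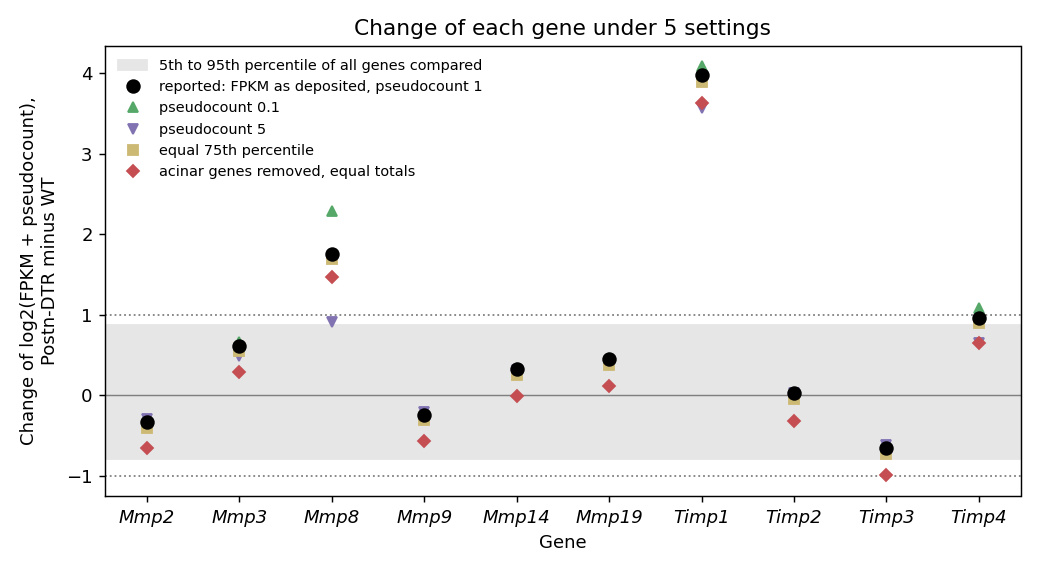
Difference of log2(FPKM + pseudocount), Postn-DTR minus WT, for each gene under 5 settings, with the 5th to 95th percentile of all genes compared (-0.79 to 0.87) shaded and dotted lines at 2-fold. Timp1 lies between 3.57 and 4.08 under every setting shown, whereas Mmp14 and Timp2 lie on both sides of 0.

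Mmp3 and Mmp8 belong to a cluster of 10 Mmp genes that spans 427 kb of chromosome 9 (chr9:7272514-7699585). Of these genes 4 passed the expression minimum, all 4 were above 0 and 3 were at least 2-fold higher in Postn-DTR, beside 3.88% of all genes compared. The other 2 of the 3, beside Mmp8, were Mmp12, the elastase of macrophages, at 1.98 in WT against 9.71 in Postn-DTR, and Mmp27, at 0.325 and 1.91, which passed the minimum only through its Postn-DTR level. At equal totals without acinar genes Mmp27 was not among the higher genes, which left 2, and with a pseudocount of 5 only Mmp12 remained past 2-fold. Mmp13, a collagenase, was below the minimum at 0.0521 and 0.319, and 3 genes (Mmp1a, Mmp1b and Mmp20) were listed at 0 in both libraries.

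To set the 10 genes in the wider pathway, 59 further proteases, inhibitors and partners in 6 lists were examined, of which 41 were compared. Of the 41, 8 were at least 2-fold higher and 2 at least 2-fold lower in Postn-DTR, beside the 3.88% and 3.12% of all genes. The median difference of the 41 was 0.04. Higher genes were thus 80.0% of those past the threshold, and 55.6% (5 higher, 4 lower) at equal totals without acinar genes.

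The group of activators and partners held 4 of the 8 higher genes among its 10 compared, with a median difference of 0.59. Lcn2, which encodes lipocalin-2, a neutrophil gelatinase-associated protein, was at 37.7 in WT against 1908 in Postn-DTR. Plaur, the urokinase receptor, was at 25.3 and 77.0, and Lrp1, an endocytic receptor that clears MMP and TIMP complexes, at 87.9 and 186.8. The Lrp1 difference of 1.08 did not reach 2-fold at equal totals without acinar genes. The plasminogen activators stayed within 2-fold, with Plau at 33.7 and 23.3 and Plat at 78.9 and 100.7.

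Among the 5 further MMPs compared (Mmp11, Mmp12, Mmp23, Mmp27 and Mmp28), Mmp12 and Mmp27 were higher and 0 were at least 2-fold lower, and the median was -0.26. Of 3 membrane-type MMPs compared, Mmp15 was at least 2-fold lower, at 8.48 in WT against 1.63 in Postn-DTR, and the median was -0.55. It was 5.21-fold lower (4.46 to 6.12), whereas Mmp14, of the same class, was 1.26-fold higher. Both of the other inhibitors compared lay within 2-fold, with Reck, a membrane-anchored inhibitor of MMPs, at 8.19 and 4.98 and Tfpi2 at 3.81 and 2.38, and their median was -0.56.

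The ADAM proteases are membrane-bound relatives that shed surface proteins. Of 8 compared, Adam8, which is expressed by myeloid cells, was at least 2-fold higher, at 6.91 in WT against 35.6 in Postn-DTR, 0 were at least 2-fold lower, and the median was -0.13. The ADAMTS proteases are secreted and cut proteoglycans and procollagens. Of 13 compared, the aggrecanase Adamts4 was higher, at 3.57 and 8.44, Adamts12 was lower, at 3.74 and 1.21, and the median was -0.18. The Adamts4 difference of 1.05 was the nearest to the threshold of these calls, and it was not among the higher genes at an equal 75th percentile, at equal totals without acinar genes or with a pseudocount of 5. Adamts12 was not among the lower genes with a pseudocount of 5.

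Among 16 matrix genes whose products MMPs cut, 0 were at least 2-fold higher or lower, beside 3.88% and 3.12% of all genes compared. Of the 16, 11 were below 0, and the median was -0.47. The 2 most abundant were Dcn, the proteoglycan decorin, at 1875 and 2152, and Col3a1, a fibrillar collagen, at 1264 in WT against 698.8 in Postn-DTR. Col4a1, a basement membrane collagen, was at 273.7 and 168.6. The matrix genes were not run under the other scalings, so the count of 0 past 2-fold holds for FPKM as deposited. Differences were -0.85 for Col3a1 and -0.70 for Col4a1, and equal totals without acinar genes lowered a typical gene by 0.31. Fn1, which encodes fibronectin, was at 459.1 and 836.8, a difference of 0.86, and lay apart from the collagens.

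Cytokines known to induce Timp1 or MMPs were compared for 6 of 8 genes. Of these, 3 were at least 2-fold higher in Postn-DTR, beside 3.88% of all genes compared, with a median of 1.16. Over all 8 genes, with no minimum, the median was 0.46. Il6 was at 0.436 and 5.58, Il1b at 1.87 and 8.19 and Il1a at 0.412 and 3.21. Il6 and Il1a were under 1 in WT and passed the minimum only through their Postn-DTR levels. Il6 in WT rested on about 4.48 fragments, so its ratio of 12.8 had a counting interval of 5.28 to 54.1. Osm, at 2.09 in WT against 4.19 in Postn-DTR, had a difference of 0.75, above 0 and within 2-fold on the log2(FPKM + 1) scale. Tnf, at 3.76 and 2.26, and Tgfb1, at 49.6 and 44.2, lay below 0 within 2-fold. Lif, at 0.945 and 0.457, and Il11, at 0.209 and 0.354, were under the minimum.

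**Figure D4:**
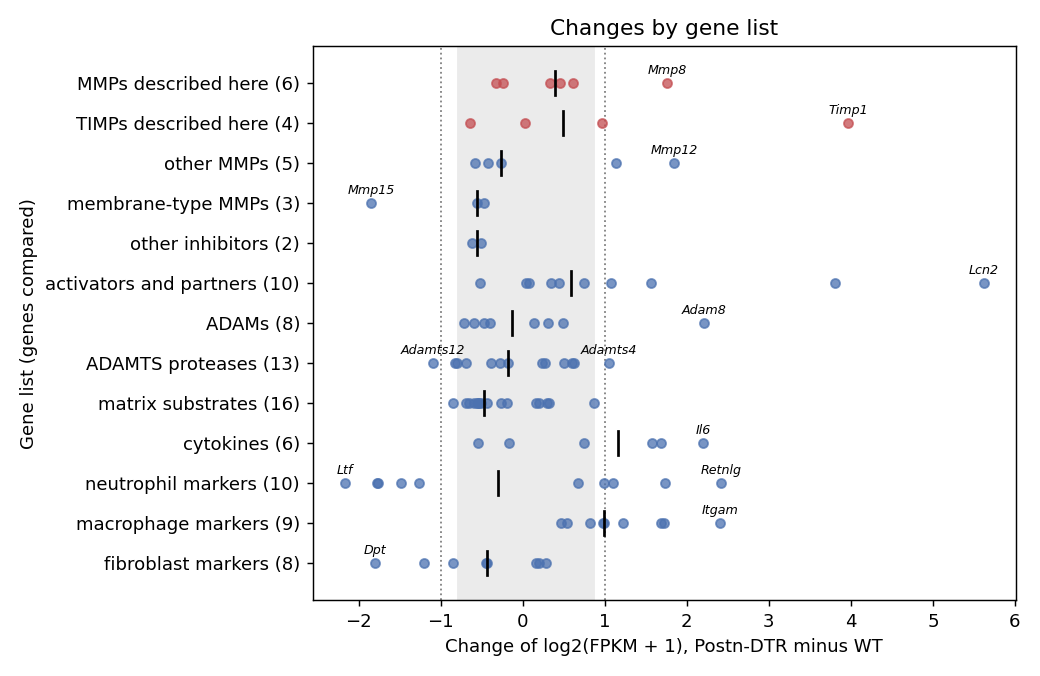
Difference of log2(FPKM + 1), Postn-DTR minus WT, for every gene compared in 13 lists, 1 point per gene, with the list median as a vertical bar, the 5th to 95th percentile of all genes shaded and dotted lines at 2-fold. Timp1 (3.97) stands apart from the other TIMPs, and the neutrophil markers fall on both sides of 0, from -2.17 for Ltf to 2.42 for Retnlg.

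Markers of the cells that make these proteins were set beside them, since fewer cells of a type and less RNA per cell cannot be told apart in whole tissue. Of 10 neutrophil markers compared 3 were at least 2-fold higher and 5 at least 2-fold lower, beside 3.88% and 3.12% of all genes compared. Of the 10, 0 were at 0 in both libraries, and their summed FPKM was 449.5 in WT against 707.2 in Postn-DTR. Most of the sum and of its difference was S100a8 (169.7 and 338.6) and S100a9 (156.6 and 249.3), which lay above 0 within 2-fold. At least 2-fold higher were Retnlg (12.8 and 72.6), the chemokine receptor Cxcr2 (0.514 and 4.03) and Csf3r (6.87 and 15.9), all expressed by mature neutrophils. Cxcr2 was under 1 in WT and passed the minimum only through its Postn-DTR level, and Mpo, below, only through its WT level. Lower were the granule protein genes Ngp (48.0 and 13.2), Camp (33.1 and 8.98), Ltf (12.4 and 1.98), Elane (5.86 and 1.85) and Mpo (3.84 and 0.726), which are expressed in immature neutrophils.

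All 9 macrophage markers were above 0 and 4 of them (Itgam, Adgre1, Cd68 and Cd163) at least 2-fold higher in Postn-DTR, beside 3.88% of all genes compared. The median of the 9 was 0.99 and their summed FPKM 4364 in WT against 7463 in Postn-DTR. Neutrophil, macrophage and fibroblast markers were not run under the other scalings. Nearest to the threshold among the higher markers were Csf3r at 1.10 and Cd163 at 1.22. Of 8 fibroblast markers 0 were at least 2-fold higher and 2 lower, beside 3.88% and 3.12% of all genes compared. The 2 were Dpt (236.9 and 67.3) and Pdgfrb (41.3 and 17.3), while Pdgfra was at 26.0 and 29.2. The median of the 8 fibroblast markers was -0.44 and their sum 3960 in WT against 3370 in Postn-DTR. Col1a1, Col3a1 and Dcn of this list are also among the matrix genes above, so the medians of these lists are not independent. No marker of the macrophage or fibroblast list was at 0. Postn, the targeted gene, was at 58.3 in WT against 16.2 in Postn-DTR. The part of these cell types in the values of Timp1, Mmp8, Mmp9, Mmp2 and Timp3 was not tested.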

How the data were processed

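RNA of whole omentum was purified (miRNeasy) and sequenced as stranded TruSeq mRNA libraries. The authors deposited FPKM per gene symbol for each library. Per the submitters' processing notes, TopHat2 2.1.1, Bowtie2 2.2.8, SAMtools 0.1.18 and Cuffdiff 2.2.1 were used with mm10. Their options, the annotation and the strand setting are not given in the sources used here. Assignment of fragments to isoforms and scaling between libraries could each change FPKM.

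The FPKM totals were 542190 (WT) and 671882 (Postn-DTR). Groups came from the genotype labels. The log2(FPKM + 1) difference was computed with Python 3.11.15 and pandas 2.3.3, after the comparison had been tested on simulated data. Fragment numbers were approximated from low FPKM of genes with 1 transcript in GENCODE M21 (GRCm38), with lengths reduced by 210 bp. This gave a depth near 23300000 fragments (WT) and 24100000 (Postn-DTR), and 76.5% and 75.0% of low values lay within 0.1 of a whole read in the data that gave these depths. Intervals are exact Poisson for levels and exact Clopper-Pearson for ratios, at the shortest RefSeq-matched transcript. Of the symbols 95.7% matched GENCODE. Promoters came from RefSeq.

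The members, lists and motifs were chosen with earlier results of these data known. Genes were named by rule: the 10 members, list genes past 2-fold (in a list with none, the 2 most abundant), 3 neighbours of the largest increase and decrease, and overlapping genes. Others were chosen after their values were seen, including Mmp11, Mmp13, Mmp23, Mmp28, Plau, Plat, Lif, Il11, Osm, Tnf, Tgfb1, Fn1, Col4a1, Tmem198b and the markers named. Alternatives were 2 pseudocounts, no filter, 2 scalings and a 1.5-fold threshold. Ly6g was not analysed here. The values of 1 list gene past 2-fold are not reported here, though it is in the counts.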

Additional observations from a re-analysis of the deposited data

How the results depend on the processing

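With 1 library per genotype the limits are the missing replicates and the scaling. Timp1 was at least 2-fold higher under the 2 other pseudocounts and the 2 scalings, and Mmp8 under all of these but the pseudocount of 5. Dropping the filter or lowering the threshold to 1.5-fold could not remove either gene. The number of the 10 genes at least 2-fold higher became 1 (Timp1) with a pseudocount of 5, and 4 (with Mmp3 and Timp4) at a 1.5-fold threshold, at which 1 (Timp3) was lower. Of the 10 genes 8 kept their direction under the 4 alternatives run on single genes, the exceptions being Mmp14 and Timp2. A pseudocount cannot change a direction and both scalings lower the Postn-DTR values. The direction of Timp3, Mmp2 and Mmp9 could therefore not change under these alternatives. Pathway genes at least 2-fold lower numbered 1 with a pseudocount of 5 and 8 at 1.5-fold, and at equal totals without acinar genes 5 were higher and 4 lower. Over all genes, 642 were higher and 643 lower with a pseudocount of 0.1. With a pseudocount of 5, 287 were higher and 168 lower. At equal totals 294 were higher and 733 lower, and at 1.5-fold 1294 and 1160. A larger pseudocount and a stricter threshold lower a count by construction.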

Other observations

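Markers of the other cell types of the omentum were present in both libraries. Over all genes compared, 3.88% were at least 2-fold higher and 3.12% at least 2-fold lower in Postn-DTR. Of 5 endothelial markers 0 were at least 2-fold higher or lower, with a median of -0.13 and Pecam1 at 109.0 in WT and 109.5 in Postn-DTR. Of 5 adipocyte markers 0 were past 2-fold, with a median of -0.15. The endothelial and adipocyte markers were not run under the other scalings, and their lowest differences were -0.68 for Kdr and -0.76 for Plin1. Of 5 mesothelial markers 1 was at least 2-fold lower (Lrrn4), with a median of 0.27. All 26 pancreatic acinar genes compared were at least 2-fold lower, with a summed FPKM over the 28 listed of 12326 in WT and 20.4 in Postn-DTR, which is 2.27% and 0.003037% of all FPKM.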
